A study of Homo sapiens with 16 samples.

Results

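MYC-only sites are places where early S-phase LoVo cells had a MYC peak and no peak of the 4 other proteins mapped beside it. A peak of the S-phase MYC list was taken if it overlapped no S-phase peak of HNF4A, KLF5, RAD21 or CTCF by at least 1 bp. This held for 3453 of the 11941 S-phase MYC peaks, 28.9%, among 146596 peaks in the 12 lists of the series. "MYC-only" is relative to these 4 proteins and says nothing of proteins that were not mapped. The sites were chosen by measured values, the positions of the listed S-phase peaks, so their S-phase values are given as a description, and the M-phase lists, which the choice did not use, carry the comparisons.

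MYC is a basic helix-loop-helix leucine zipper factor that binds DNA as a pair with MAX at short sequences called E-boxes. It gathers mainly at active promoters and enhancers and drives genes of growth, ribosome building and metabolism, and in colon cancer it is a main target of Wnt signalling. When chromosomes condense in mitosis, many transcription factors leave most of their sites, while some stay at a part of them. Of the other mapped proteins, HNF4A is a nuclear receptor that keeps liver and gut epithelium differentiated. KLF5 is a Krüppel-like factor of dividing intestinal crypt cells. RAD21 closes the cohesin ring that holds DNA strands together, and CTCF is an insulator protein that halts cohesin along the DNA.

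Chromatin immunoprecipitation and sequencing (ChIP-seq) was done on LoVo cells, an established line of colon adenocarcinoma. M-phase cells had 12 h of 2 mM thymidine and then 8 h of 200 ng/ml nocodazole, a poison of the mitotic spindle. S-phase cells had a double thymidine block at 2 mM, with 12 h of block, 8 h of release and 12 h of block. Each phase had 1 library for each of MYC, HNF4A, KLF5, RAD21, CTCF and histone H3, with rabbit IgG as the control and goat IgG for CTCF. No target had a replicate in either phase, no p-value was computed, and the intervals below are 95% intervals over sites that cover counting error only.

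After the caller's filter of at most 1 tag per position, the M-phase MYC library held 15344922 tags and the S-phase MYC library 9282892, a ratio of 1.65. The M-phase rabbit IgG control was the smaller, with 6875106 tags against 10753369 in S phase. The M-phase MYC list held 1974 peaks, and the lowest tag count in it was 14. A false discovery rate (FDR) of 100% was deposited for 77.3% of the M-phase MYC peaks, and one under 5% for 86 of them. The labels give that IgG control a peak number, 2118, which is also how many peaks the M-phase KLF5 list holds. Whether labels or libraries were exchanged is not given in them. The M-phase MYC, HNF4A, RAD21, KLF5 and H3 lists were all called against that control.

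In S phase the MYC-only sites were the weaker and narrower part of the MYC list. Their median was 24 tags over 1187 bp, with the middle 50% of sites between 17 and 38 tags and the range from 11 to 230. The other 8488 MYC peaks had a median of 33 tags over 1430 bp. The MACS score, which is 10 times the negative log10 of the caller's p-value, had a median of 89.5 at MYC-only sites and 123 at the others. Tags per kb of peak differed less, with medians of 20.4 at MYC-only sites and 22.2 at the others, and fold enrichment over IgG was 8.40 and 8.99. MYC-only sites made up 43.3% of the weakest of 10 equal groups by score and 17.8% of the strongest. Of the remaining MYC peaks, 3943 lay with HNF4A or KLF5 alone, 1812 with RAD21 or CTCF alone and 2733 with both kinds. A narrow peak has less room to overlap another list than a wide one, and the part of width in the choice of the sites was not tested.

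The distance of MYC-only sites to the other proteins varied widely. The median gap to the nearest S-phase peak of the 4 proteins was 9711 bp, and the middle 50% of sites lay between 2773 and 23323 bp away. CTCF was nearest for 52.5% of the sites, HNF4A for 25.3%, KLF5 for 11.7% and RAD21 for 10.5%. The S-phase lists differ in size, with 28474 CTCF, 15437 HNF4A, 5928 KLF5 and 27122 RAD21 peaks. Close by, the order was another. An HNF4A peak lay within 1000 bp of 282 sites, CTCF of 203, KLF5 of 174 and RAD21 of 139, and a site can count for several proteins. A gap of at most 1000 bp was found at 549 sites, 15.9%, and one above 100000 bp at 73. At the edge of the rule, 73 MYC-only sites lay within 100 bp of another peak and had a median of 23 tags and a score of 81.1. The 33 excluded peaks that overlapped others by at most 100 bp in all had a median of 19 tags and a score of 69.8. MYC-only sites were also mostly apart from each other: 2987 had no second one within 10000 bp, and the longest run, on chromosome 17 from 7150459 to 7160202 in the genome build hg18, held 4.

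In M phase, 379 of the 3453 MYC-only sites still had a MYC peak. That is 11.0% (95% Clopper-Pearson interval 9.95 to 12.1%), against 13.2% (12.5 to 13.9%) at the other MYC sites and 12.6% of all S-phase MYC peaks. A site is called kept here when an M-phase MYC peak overlaps it by at least 1 bp. The difference, MYC-only minus other sites, was -2.23 percentage points (Newcombe interval -3.47 to -0.937). Of the MYC-only sites that were not kept, 56 had an M-phase MYC peak within 1000 bp, 1.82% of 3074. That share was not computed for the other MYC sites. With only M-phase peaks of a score of at least 100 counted, 3.42% of MYC-only sites were kept, against 3.74% of all S-phase MYC peaks. With only those of an FDR under 5% counted, 23 MYC-only sites were kept, 0.666%, against 0.729% of all S-phase MYC peaks.

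Compared at equal strength, the direction turned: the strong MYC-only sites were kept more often than strong MYC sites that had a companion in S phase. In the strongest of the 10 score groups, 144 of 212 MYC-only sites were kept, 67.9% (61.2 to 74.2%), against 515 of 982 other sites, 52.4% (49.3 to 55.6%). The gap there was 15.5 points (8.23 to 22.2), and in the next group it was 6.91 points (0.756 to 13.6), with 30.1% against 23.2%. In the other 8 groups the interval of the difference included 0. The MYC-only share was the higher in 7 of the 10 groups and the lower in the weakest ones. In the weakest group 0.965% of MYC-only sites and 1.77% of the others were kept. In the next weakest it was 1.34% against 3.21%, a difference of -1.87 points (-3.56 to 0.00255). Standardised over the 10 score groups, MYC-only minus other sites came to 1.98 points (0.958 to 2.99). Over 10 groups of width it was 1.96 points (0.826 to 3.10). Over 10 groups of fold enrichment it was -0.351 points (-1.49 to 0.784), so the sign depends on which measure of strength is held equal. The strongest score group held 38.0% of all kept MYC-only sites.

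**Figure D1:**
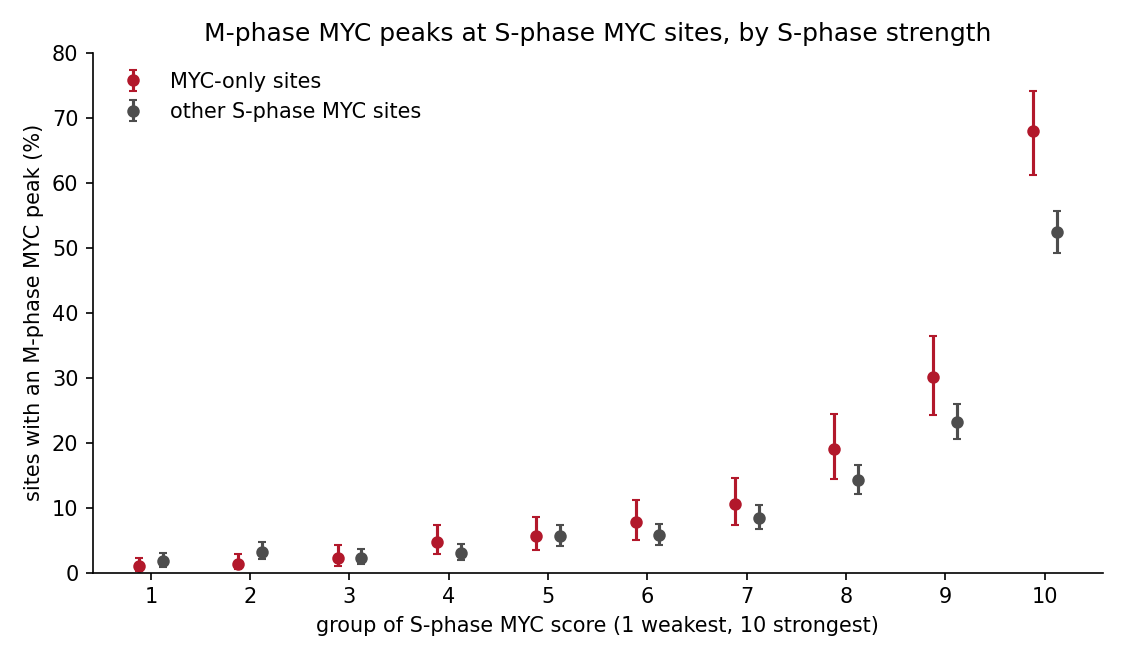
Share of S-phase MYC sites with an M-phase MYC peak (vertical axis, percent) in 10 equal groups of the S-phase MYC score (horizontal axis), for MYC-only sites and for the other MYC sites; points are shares and bars 95% Clopper-Pearson intervals. In the strongest group MYC-only sites stand at 67.9% and the others at 52.4%, and in the weakest group at 0.965% and 1.77%.

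The other MYC sites were also split by the kind of companion they had in S phase. Standardised for score, MYC-only sites exceeded sites with both kinds of companion by 4.19 points (2.59 to 5.78), those with HNF4A or KLF5 alone by 2.03 points (0.794 to 3.28) and those with RAD21 or CTCF alone by 1.61 points (0.0751 to 3.15). Standardised for fold enrichment, each of these 3 intervals included 0. Without standardisation, MYC-only sites were kept less often than sites with both kinds (14.7%) or with HNF4A or KLF5 alone (13.8%). They stood at 11.0% against 9.60% for sites with RAD21 or CTCF alone, a difference of 1.37 points (-0.382 to 3.05).

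**Figure D2:**
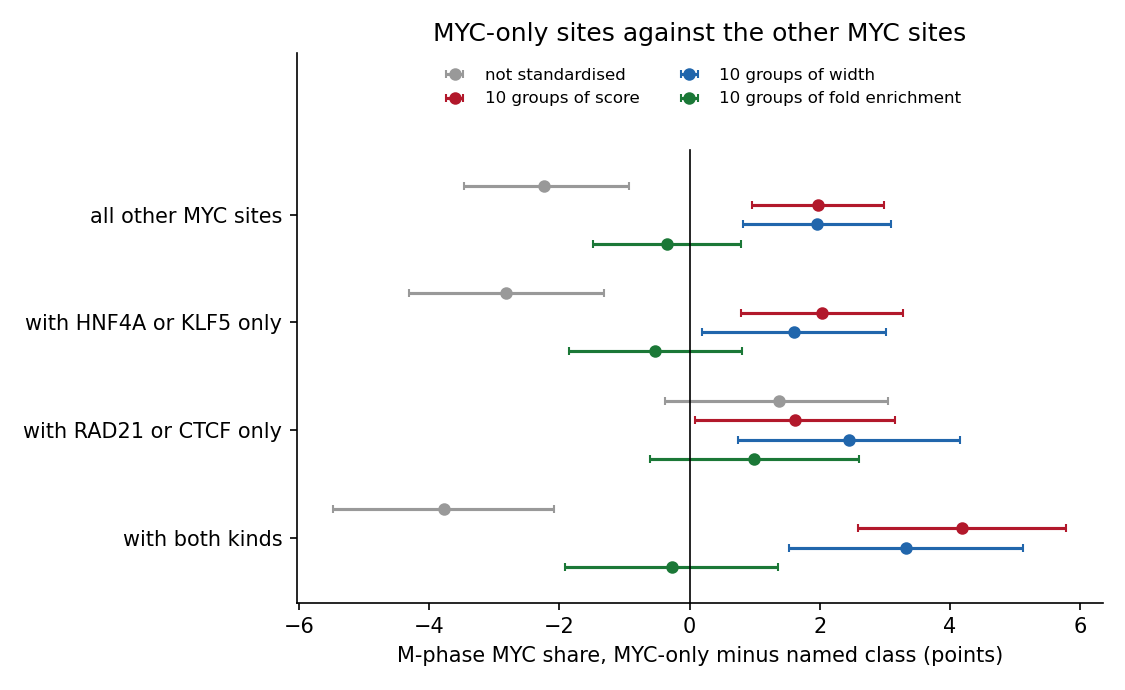
Difference in the share with an M-phase MYC peak, MYC-only sites minus the class named on the left (horizontal axis, percentage points), without standardisation and standardised over 10 groups of S-phase score, width or fold enrichment; bars are 95% intervals and the vertical line is 0. Against all other MYC sites the values are -2.23, 1.98, 1.96 and -0.351 points in that order.

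The list threshold limits what these shares can show. At the 370 MYC-only sites with 1 peak in each phase, the M-phase peak held a median of 0.311 times the S-phase tags per 1000000 library tags. At that ratio an S-phase peak needs 27.2 tags to reach the lowest M-phase value in the list, 0.912 tags per 1000000. Below this line lay 1962 MYC-only sites, 56.8%, and 39.6% of the other MYC sites. The line comes from the ratio at MYC-only sites. At 1089 other kept MYC sites the median ratio was 0.275, and a line from that ratio was not computed. MYC-only sites below it were kept in 2.45% of cases and those above it in 22.2%, against 20.1% of the other sites above it. The other sites were also seldom kept below it: 3364 of them lay there, and 1028 of the 1121 kept ones lay at or above it. The ratio itself comes from sites strong enough to be listed in both phases, so for many weak sites a loss in M phase could not be told from a peak under the threshold.

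At the 370 kept MYC-only sites with 1 peak in each phase, the M-phase peak held fewer tags per 1000000 and was mostly narrower. MYC tags per 1000000 had a median of 1.76 in M phase (middle 50% of sites 1.30 to 2.48), against 6.14 in S phase (3.99 to 8.91). The median width was 1125 bp in M phase and 1638 bp in S phase, and the M-phase peak was narrower at 335 of 370 sites. Per kb of peak, where called widths weigh less, the medians were 1.58 tags in M phase and 3.63 in S phase, a median ratio of 0.452. None of these 370 sites had as many tags per 1000000 in M phase as in S phase, and the highest ratio was 0.990. Per kb of peak the highest ratio was 1.21. The peaks overlap by definition; their summits lay a median of 75 bp apart, within 100 bp at 220 sites (59.5%) and at most 1585 bp apart. At 1089 other kept MYC sites the ratio of tags was 0.275 and the ratio per kb 0.446, so the ratio per kb was close in both classes. Across the 370 MYC-only sites, M-phase and S-phase tags per 1000000 had a Spearman's rho of 0.703, and the points come from a single pair of libraries.

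**Figure D3:**
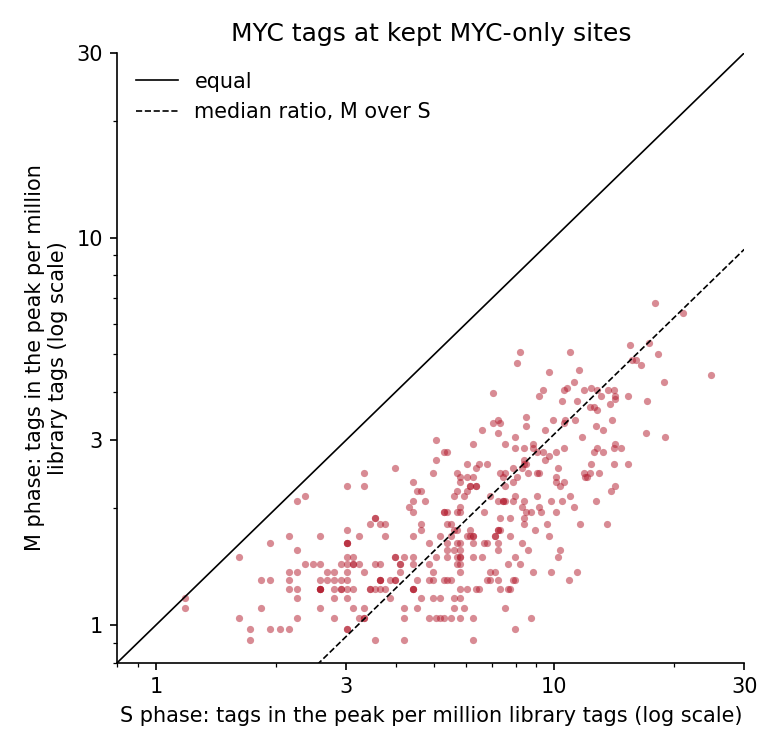
MYC tags per 1000000 library tags in the M-phase peak (vertical axis, log scale) and the S-phase peak (horizontal axis, log scale) at the 370 MYC-only sites with 1 peak in each phase; each point is a site, the solid line marks equal values and the dashed line the median ratio of 0.311. All points lie below the line of equal values.

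Named sites show how a strong MYC-only site looks in each phase. Sites were ranked by the authors' fold enrichment, used within a list only; tag counts are as deposited, and the M-phase MYC library held 1.65 times the filtered tags. The kept site of highest S-phase fold lay on chromosome 5 from 81608864 to 81610738. Its M-phase peak held 62 tags at 8.55-fold with an FDR of 25.74%, and its S-phase peak 119 tags at 69.24-fold. The nearest S-phase peak of the other proteins was a CTCF peak 17341 bp away, and no other M-phase list had a peak there. On chromosome 17 from 24070473 to 24072613, MYC had 81 tags at 19.67-fold in M phase and 144 tags at 55.76-fold in S phase. On chromosome 2 from 38830790 to 38832820, it had 57 tags at 23.26-fold in M phase and 128 tags at 50.96-fold in S phase. In M phase MYC was alone among the mapped targets at both sites, and their M-phase peaks had an FDR of 0%. Most kept sites had no such value. The M-phase FDR was 100% at 256 of the 370 MYC-only sites with 1 peak in each phase, 69.2%, against 71.4% of 1089 other kept MYC sites.

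Other sites stood out by their M-phase enrichment. On chromosome 12 from 111330905 to 111332391, MYC had 78 tags at 25.92-fold in M phase, the highest M-phase fold of the MYC-only sites ranked, and 76 tags at 14.39-fold in S phase. On chromosome 16 from 4260558 to 4263164, MYC had 98 tags at 17.67-fold in M phase and 195 tags at 21.22-fold in S phase, and an S-phase CTCF peak began 308 bp away without touching it. Similar or lower counts in M phase are a smaller share of a deeper library at both sites, 5.08 against 8.19 and 6.39 against 21.0 tags per 1000000.

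Some of the most enriched MYC-only sites were missing from every M-phase list. On chromosome 19 from 10077494 to 10078865, the S-phase peak held 105 tags at 53.96-fold, and no M-phase MYC peak lay within 1000 bp. The same held on chromosome 10 from 30677403 to 30678717, with 79 S-phase tags at 49.26-fold, and on chromosome 4 from 2933855 to 2935444, with 71 at 35.21-fold. All 3 had more S-phase tags than the 27.2 that the median ratio asks for.

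In M phase, few MYC-only sites gained a listed peak of another protein, and CTCF was the one listed at the most sites. Of the 3453 sites, 2819 (81.6%) had no M-phase peak of any of the 6 targets, against 55.7% of all S-phase MYC peaks, and 316 had MYC alone. An M-phase CTCF peak was present at 188 sites, 5.44% (4.71 to 6.25%), and a RAD21 peak at 118, 3.42% (2.84 to 4.08%). KLF5 was listed at 28 sites (0.811%), HNF4A at 7 (0.203%) and H3 at 1. The M-phase lists differ in size, with 24391 CTCF, 22966 RAD21, 2118 KLF5, 2413 HNF4A and 542 H3 peaks. The part of list size in this order was not tested. Among all S-phase MYC peaks the shares were 25.4% for CTCF, 19.3% for RAD21, 4.98% for KLF5, 5.32% for HNF4A and 0.0586% for H3. Those figures include the sites that the rule removed for having these proteins in S phase. At least 1 of the 5 other targets was listed at 318 MYC-only sites, 9.21% (8.27 to 10.2%), against 37.6% of all S-phase MYC peaks. CTCF and RAD21 were listed together at 21 MYC-only sites, 0.608%, against 12.9% of all S-phase MYC peaks. At 15 of the 21 no other target was listed, and at 5 only MYC was listed besides.

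These M-phase CTCF and RAD21 peaks had lower scores than their full lists, and scores near those of all M-phase peaks that had no S-phase peak of the same protein. Of the 189 M-phase CTCF peaks at MYC-only sites, 188 overlapped no S-phase CTCF peak, which the rule nearly fixes; in the whole M-phase CTCF list 17.2% overlapped none. Their median score was 70.0, against 67.8 for all 4203 M-phase CTCF peaks without an S-phase one and 120 for the full list. An FDR under 5% was given to 17 of them, 8.99%, against 5.69% of all those without an S-phase peak and 36.6% of the full list. For RAD21 it was 11, 9.32%, against 16.8% of those without an S-phase peak and 62.3% of the full list. Of the 118 M-phase RAD21 peaks at these sites, 116 had no S-phase RAD21 peak, and their median score was 64.3, against 66.2 for all M-phase RAD21 peaks without an S-phase one and 129 for the full list. The summits of MYC in S phase and of CTCF in M phase lay a median of 208 bp apart, and within 250 bp in 53.2% of the pairs. In filtered tags the M-phase library was 1.89 times the S-phase one for CTCF and 2.19 times for RAD21, and the part of depth in these new peaks was not tested. The M-phase CTCF site of highest fold was on chromosome 17 from 846362 to 848006, where CTCF had 32 tags at 27.27-fold and RAD21 40 tags at 8.42-fold in M phase, and MYC 68 tags in S phase alone.

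Sites of the other factors, chosen in the same way, had fewer M-phase CTCF peaks than MYC-only sites. The 8221 HNF4A-only sites had an M-phase CTCF peak in 0.511% of cases (0.368 to 0.690%) and the 931 KLF5-only sites in 2.47% (1.57 to 3.68%). MYC-only minus HNF4A-only sites gave 4.93 points (4.20 to 5.75) for CTCF and MYC-only minus KLF5-only sites 2.97 points (1.57 to 4.12). Standardised over 10 groups of peak width, these differences were 4.79 points (4.02 to 5.57) and 2.44 points (1.21 to 3.67). For RAD21 the share was 3.42% at MYC-only, 2.72% at HNF4A-only and 3.22% at KLF5-only sites, and standardised for width the differences were -0.110 points (-0.889 to 0.669) and -0.0437 points (-1.32 to 1.23). The site's own factor was kept at 11.0% of MYC-only, 11.3% of HNF4A-only and 5.26% of KLF5-only sites. Those shares rest on M-phase lists of 1974, 2413 and 2118 peaks from libraries of different depth.

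**Figure D4:**
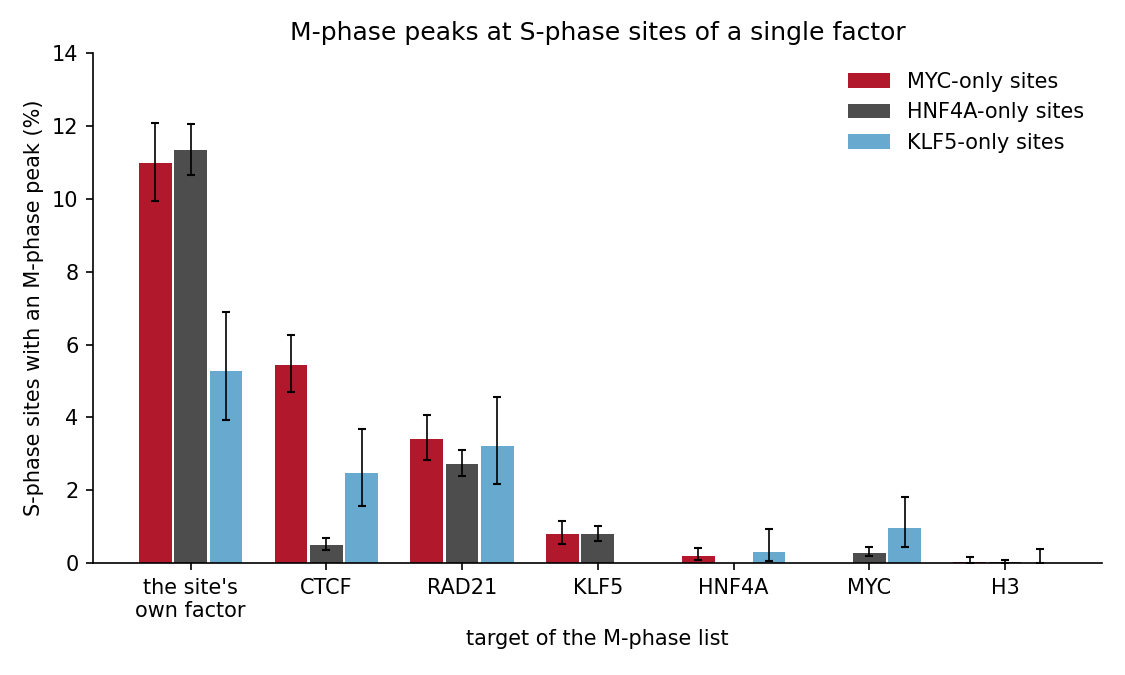
Share of S-phase sites of a single factor that had an M-phase peak of the target on the horizontal axis (vertical axis, percent), for MYC-only, HNF4A-only and KLF5-only sites; bars are shares with 95% Clopper-Pearson intervals, and each class's own factor is the group at the left. CTCF stands at 5.44% of MYC-only, 0.511% of HNF4A-only and 2.47% of KLF5-only sites.

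Among MYC-only sites, MYC was kept more often where RAD21 was listed in M phase. The same comparison was not made at the other MYC sites, so it may not be particular to MYC-only sites. Of the 118 MYC-only sites with an M-phase RAD21 peak, 28 had an M-phase MYC peak, 23.7% (16.4 to 32.4%), against 10.5% (9.50 to 11.6%) of the 3335 sites without. The difference was 13.2 points (6.35 to 21.7), and 12.6 points (5.67 to 19.4) standardised over 10 groups of the S-phase MYC score. For CTCF the shares were 17.0% with and 10.6% without, and the standardised difference was 3.20 points (-1.53 to 7.92). Sites with M-phase RAD21 were also wider in S phase, with a median of 1361 against 1182 bp. Standardised for width, the difference for RAD21 was 10.3 points (2.96 to 17.6). The M-phase MYC and RAD21 lists were called against the same IgG library, which the CTCF list was not, and the part of that shared control was not tested.

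Distance to the other proteins in S phase went with how often MYC was kept, and so did strength. MYC-only sites more than 1000 bp from any other peak were kept in 11.6% of cases (10.5 to 12.8%) and those nearer in 7.65% (5.57 to 10.2%), a difference of 3.96 points (1.20 to 6.25). The median scores were 91.9 and 79.7, and standardised for score the difference was 0.554 points (-1.57 to 2.67). From 20001 to 100000 bp, 128 of 934 sites were kept, 13.7%, and beyond 100000 bp 4 of 73, 5.48% (1.51 to 13.4%).

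By chromosome, the MYC-only share of the S-phase MYC peaks is given as a description, since the S-phase overlaps that chose the sites set it. On X, 94 of 155 S-phase MYC peaks were MYC-only, 60.6%, against 28.5% on the autosomes. The difference was 32.2 points, and 25.2 points when standardised for width. Neither value is a test, because the rule sets both shares. MYC peaks on X were narrower, with a median of 1017 bp against 1359 bp on the autosomes. They overlapped HNF4A in 13.5% of cases against 43.1% on the autosomes, KLF5 in 13.5% against 33.6%, RAD21 in 9.03% against 27.0% and CTCF in 20.6% against 27.0%. A higher share on X was not particular to MYC. HNF4A-only sites made up 78.0% of the HNF4A peaks on X against 52.9% on the autosomes. KLF5-only sites made up 31.7% of the KLF5 peaks on X against 15.6%. Among the autosomes the share ran from 20.1% on chromosome 15 and 21.8% on chromosome 12 to 36.3% on chromosome 13. MYC-only sites on chromosomes 15 and 12 had median widths of 1325 and 1429 bp and median fold enrichments of 7.15 and 7.19.

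In M phase, which the choice did not use, 7 of the 94 MYC-only sites on X were kept, 7.45% (3.05 to 14.7%), and the interval includes the 11.1% of the autosomes. One of them, on chromosome X from 48317352 to 48318820, had 27 MYC tags in M phase and 67 in S phase at 59.69-fold, the second highest S-phase fold among the kept sites ranked, with a CTCF peak of 16 tags in M phase. The FDR of these M-phase peaks was 100% for MYC and 11.54% for CTCF. The kept share ran from 6.06% on chromosome 18 to 19.4% on chromosome 21, with wide intervals (1.68 to 14.8% and 8.19 to 36.0%) that overlap.

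**Figure D5:**
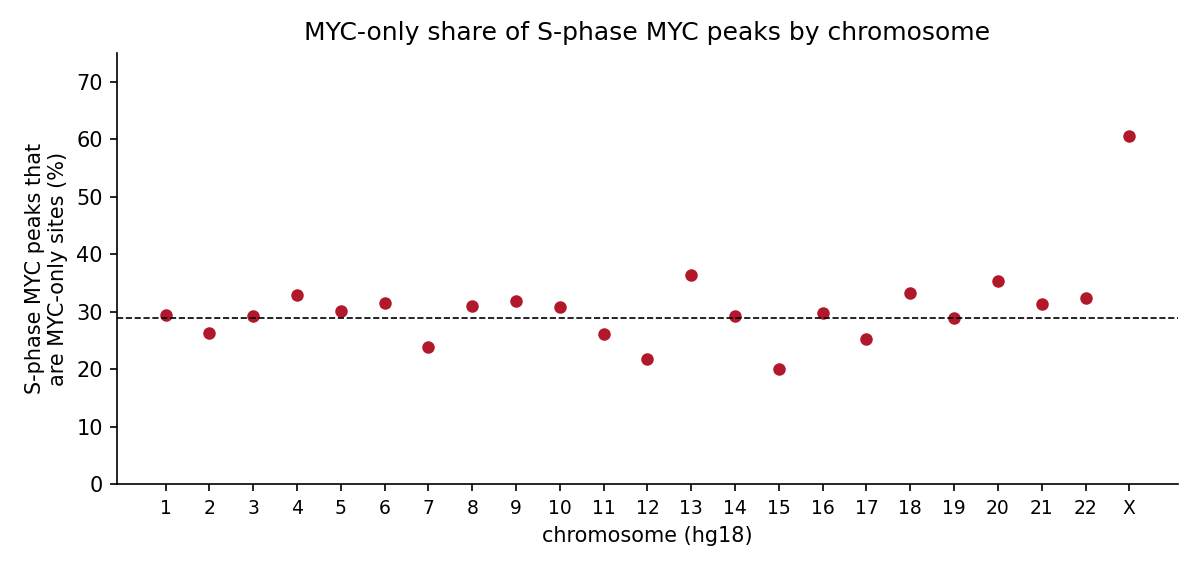
MYC-only sites as a share of the S-phase MYC peaks of each chromosome (vertical axis, percent; horizontal axis, chromosome in hg18), a description of where the rule found its sites; points are shares and the dashed line is the 28.9% of the whole list. X stands at 60.6% and chromosomes 15 and 12 at 20.1% and 21.8%.

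Peaks of histone H3, the chromatin control, overlapped 56 MYC-only sites in S phase, 1.62% (1.23 to 2.10%), against 0.683% (0.519 to 0.882%) of the other MYC sites and 0.955% of all S-phase MYC peaks. These 56 were weak, with a median score of 66.4 against 90.3 at the other MYC-only sites, and 1 was kept. Left out together with the sites at M-phase H3 peaks, they moved the kept share to 11.1% and the score-standardised difference to 2.04 points (1.01 to 3.07).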

How the data were processed

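The samples were 16 libraries of LoVo cells, grouped by target and phase from their titles, with 12 peak lists and 4 IgG controls. Per the submitters' processing notes, CASAVA 1.4, BWA, MACS 1.4 and hg18 were used, and per the file headers MACS 1.4.0rc2 called each list on merged alignments against the IgG library of the same phase, with a p-value cutoff of 1e-05 and at most 1 tag per position. In the deposited lists tag counts are raw whole numbers. The authors' score is the p-value as its negative log10 multiplied by 10, the deposited fold enrichment is a ratio over the local IgG background, and the deposited FDR is a percent from exchanging ChIP and control. The S-phase CTCF library and its goat IgG carry another alignment folder name in their headers than the rabbit antibody libraries do.

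All listed peaks were used, in Python 3.11.15 (scipy 1.17.1 for intervals, pandas 2.3.3 and numpy 2.4.6 for tables, matplotlib 3.10.9 for figures). Lists were compared by overlap of at least 1 bp. Intervals are exact Clopper-Pearson for a share and Newcombe for a difference. Standardised differences compare shares within 10 equal groups, weighted by the smaller class, with normal intervals from binomial variances. Tags per 1000000 are tag counts over the filtered tags of the library. Simulated data with known answers served to test the scripts. Named sites followed a fixed rule: highest fold enrichment among kept sites, among sites with no M-phase MYC peak within 1000 bp, and by M-phase list, away from H3 peaks; a part of them is named. The members, the rule and the lists compared were chosen with earlier results of these data known. The reference tables at hand use another genome build than hg18, so no site was assigned to a gene or a sequence.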

Additional observations from a re-analysis of the deposited data

How the results depend on the processing

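The number of MYC-only sites was 1518 with S-phase MYC scores of at least 100, 6317 when only peaks of the other proteins with a score of at least 100 removed a site, and between 2904 and 4113 under the other 3 alternatives. The share of MYC-only sites kept was 21.6% with S-phase scores of at least 100, 9.18% with 50% of each peak shared, 8.89% with summits within 200 bp, 3.42% with M-phase scores of at least 100 and 0.666% with M-phase FDR under 5%. The difference from other MYC sites was standardised for score except where an alternative changed that step. The difference stayed above 0, with an interval that excluded 0, under 10 of the 13 alternatives, groups of width among them. It was 4.78 points with S-phase scores of at least 100 and 0.242 points (-0.0382 to 0.523) with M-phase FDR under 5%. It turned to -0.351 points with groups of fold enrichment in place of score and to -2.23 points without standardisation. With 5 groups of score by 5 of width it was 2.36 points, and with the CTCF list left out of the rule 2.24 points, both chosen after seeing the data. The share with an M-phase peak of another target was 12.5% with S-phase scores of at least 100, 15.0% when only peaks of the other proteins with a score of at least 100 removed a site, 4.37% with 50% of each peak shared, 4.63% with summits within 200 bp, 1.62% with M-phase scores of at least 100 and 0.956% with M-phase FDR under 5%. It was 5.44% with the M-phase CTCF list alone and 8.49% without the M-phase KLF5 list, both chosen after seeing the data. Stricter lists hold fewer peaks by construction; other causes were not tested. No paired analysis was possible because each target had 1 library per phase and no result came from a test across samples.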

Other observations

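Seen from M phase, MYC-only sites carried 378 of the 1974 M-phase MYC peaks, 19.1% (17.4 to 21.0%), and 467 M-phase MYC peaks lay at no S-phase MYC peak. Among the 1507 M-phase MYC peaks at an S-phase MYC peak, 25.1% (22.9 to 27.4%) lay at MYC-only sites. Among the 500 M-phase MYC peaks of highest score, 130 did, 26.0% (22.2 to 30.1%). Among the 500 S-phase MYC peaks of highest score, 81 were MYC-only, 16.2%, against 28.9% of the whole S-phase list, a share that the choice of the sites sets.

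Most runs of neighbouring MYC-only sites were pairs. With gaps of at most 10000 bp, 466 sites, 13.5%, lay in 227 runs of at least 2 sites, of which 216 were pairs. In the run of 4 on chromosome 17, 2 sites had an M-phase MYC peak. The run of 3 with the most tags, on chromosome 22 from 44826852 to 44843038, held 177 S-phase MYC tags in all and no M-phase MYC peak.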
